A study of Mus musculus with 45 samples.

Results

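Genes tied to signalling through the kinases MEK and ERK were followed by long-read RNA sequencing in mouse neural progenitor cells that were being reprogrammed to pluripotency, and in embryonic stem cells. The 10 genes were taken by name, and no threshold on their values was used. They and the lists used below were chosen with earlier results of these data known. Their counts beside all genes are therefore a description and not an independent test. The 10 were the ligand gene Fgf4 and the known pathway targets Spry2, Spry4, Dusp4, Dusp6, Etv4, Etv5, Egr1, Ier3 and Fos. All 10 were found among the 23575 genes of the deposited table, and their positions below are those of GENCODE M21 on GRCm38. The series held 45 libraries: 22 read on R9 flow cells, made from poly(A)-selected RNA without PCR, and 23 read on R10 flow cells, made from total RNA with PCR. The values were CPM, a gene's reads scaled to a common library size. The R9 libraries held between 447990 and 1390424 reads, the R10 libraries between 566599 and 4236442. A count of 0 therefore allowed up to 2.16 to 6.69 CPM in an R9 library and up to 0.707 to 5.29 CPM in an R10 library (3 reads), which covers counting error only.

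All progenitors had been derived from stem cells of the line O4G, named for an Oct4-GFP reporter. Their genotype was WT (below, wild type), OKMS-Luciferase-AS or OKS-Luciferase-AS (below, OKMS and OKS), and the OKMS and OKS lines carry factor sets that doxycycline induces. Progenitor medium is N2B27 with EGF and FGF-2, each at 20 ng/mL, and heparin, so day 0 cells were fed ligands of receptors that signal to ERK. Induction took place in DMEM with 15% fetal bovine serum, LIF and doxycycline at 1 µg/mL (below, FBS-LIF with dox). Some cultures were kept in 2i-LIF instead, which is N2B27 with LIF, the MEK inhibitor PD0325901 at 1 µM and the GSK3 inhibitor CHIR-99021 at 3 µM. For R9 this change was made at day 6, and for the R10 libraries of day 18 its day is not given. The embryonic stem cells (lines O4G, R1 and R1-Clone3) were also grown in 2i-LIF. A comparison of 2i-LIF with FBS-LIF therefore differs in the MEK inhibitor, in CHIR-99021, in serum, in doxycycline and in the base medium, and these cannot be told apart. Libraries of a group, and those of a line on different days, are not stated to come from separate cultures. An R9 and an R10 library of a condition may share RNA, so p-values measure only the spread between these libraries. In bulk RNA, fewer cells of a type and less RNA per cell cannot be told apart.

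ERK is the last kinase of a chain that runs from growth factor receptors through RAS, RAF and MEK. In the nucleus it activates ETS and serum response factors, which switch on immediate early genes within minutes and then genes whose products shut the pathway down again. FGF4 is a ligand that embryonic stem cells make for themselves, and blocking MEK is known to hold such cells in a naive state. Sprouty proteins (Spry2, Spry4) act between the receptor and RAF, and dual-specificity phosphatases (Dusp4, Dusp6) remove the activating phosphates from ERK. Etv4 and Etv5 are ETS factors of the PEA3 group, and Egr1, Ier3 and Fos are immediate early genes.

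The promoters of 6 of the 10 genes were in the RefSeq promoter table (GRCm38.p6). The genes without an entry were Spry4, Dusp4, Etv4 and Egr1. Upstream windows of 250 bases are shown because their genes cover the patterns described below: Fgf4, which was higher in 2i-LIF, Dusp6 and Ier3, which were lower in 2i-LIF and in stem cells, and Fos, which was higher after the move to serum. They lie at chr7:144861136-144861385 (plus strand), chr10:99262981-99263230 (plus strand), chr17:35821463-35821712 (plus strand) and chr12:85473640-85473889 (plus strand), and end at the base before the RefSeq start. Capitals mark the ETS core CGGAAG on either strand and the TATA box TATAAA on the gene's strand.
Fgf4: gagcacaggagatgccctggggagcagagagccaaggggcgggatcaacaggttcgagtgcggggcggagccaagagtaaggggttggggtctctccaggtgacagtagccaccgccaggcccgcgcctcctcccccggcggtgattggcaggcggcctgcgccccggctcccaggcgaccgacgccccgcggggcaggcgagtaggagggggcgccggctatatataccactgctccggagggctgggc
Dusp6: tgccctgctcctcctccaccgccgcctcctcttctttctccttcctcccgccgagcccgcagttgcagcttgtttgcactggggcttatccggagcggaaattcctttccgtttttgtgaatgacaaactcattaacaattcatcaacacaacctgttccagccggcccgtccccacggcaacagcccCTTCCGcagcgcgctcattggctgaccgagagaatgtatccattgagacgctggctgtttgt
Ier3: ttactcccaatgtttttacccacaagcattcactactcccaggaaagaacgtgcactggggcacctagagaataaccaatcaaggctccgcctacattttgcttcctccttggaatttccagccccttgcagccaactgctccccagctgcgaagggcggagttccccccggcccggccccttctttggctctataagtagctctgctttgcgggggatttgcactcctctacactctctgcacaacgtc
Fos: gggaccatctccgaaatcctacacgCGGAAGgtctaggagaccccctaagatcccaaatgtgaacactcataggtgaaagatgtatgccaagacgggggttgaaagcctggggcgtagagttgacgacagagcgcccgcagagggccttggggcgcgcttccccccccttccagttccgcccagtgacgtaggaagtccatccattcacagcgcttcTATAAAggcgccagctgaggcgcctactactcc

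The ETS core CGGAAG lay 62 bases before the start of Dusp6, on the opposite strand, and 225 bases before the start of Fos. It was in 13.6% of the 32851 promoter windows of the table, and in none of the other windows of these genes (Fgf4, Spry2, Ier3 and both starts of Etv5). The longer ETS core CCGGAAG, which contains CGGAAG and was in 6.91% of all windows, was in none of the genes' windows. TATAAA lay 33 bases before the start of Fos and was in 7.59% of all windows. The cyclic AMP response element TGACGTCA (1.55% of all windows), the CArG box (1.47%) and the AP-1 site TGACTCA (4.46%), each searched on both strands, were in none of these windows.

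The medium comparison set 2i-LIF against FBS-LIF with dox in 5 pairs of the same flow cell type, factor set and day, and asked which genes were lower where MEK was inhibited. Genes were called at an adjusted p under 0.05 (limma, Benjamini-Hochberg over all tested genes) with a log2 difference of at least 1. Of the 10 genes, 9 were called, 8 of them lower in 2i-LIF and Fgf4 higher, where 12.3% of all 14935 tested genes were called in either direction (6.32% lower and 5.95% higher). Their median log2 difference was -2.92 against -0.03 for all genes tested. Egr1, Spry4, Dusp4, Fos and Dusp6 had the largest differences on the log2(CPM + 1) scale, and Etv5 was not called.

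Fgf4, the ligand (chr7:144847367-144865243, plus strand), stood at 107, 103, 97.8, 56.4 and 59.4 CPM in 2i-LIF and at 49.6, 57.9, 51.7, 54.9 and 10.2 CPM in the matching FBS-LIF libraries. The order here and below is R9 day 14 OKMS, R9 day 20 OKMS, R9 day 20 OKS, R10 day 18 OKMS and R10 day 18 OKS. It was higher in 2i-LIF in all pairs, by 1.06 ± 0.27 (log2, SE, adjusted p = 0.0121), but the groups overlapped and the R10 OKMS pair differed by only 0.04. The call was lost without the R9 day 14 OKMS pair (adjusted p = 0.0584), without the R9 day 20 OKS pair (0.0502) and without the R10 OKS pair, whose FBS-LIF library was the low value (0.72, adjusted p = 0.0688).

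Spry4, a feedback inhibitor (chr18:38586247-38601415, minus strand), stood at 1.22, 0, 0, 7.05 and 1.56 CPM in 2i-LIF and at 45.4, 61.6, 41.0, 13.4 and 115 CPM in FBS-LIF. Every 2i-LIF library lay below every FBS-LIF library, with a log2 difference of -4.42 ± 0.59 (adjusted p = 6.31e-05). Spry2, its relative (chr14:105891947-105896819, minus strand), stood at 14.7, 11.8, 5.82, 12.3 and 14.1 CPM in 2i-LIF and at 64.4, 48.0, 46.7, 5.94 and 42.3 CPM in FBS-LIF. Spry2 was lower in 2i-LIF in 4 of 5 pairs and higher in the R10 OKMS pair, where it rested on 7 reads against 4 in FBS-LIF. The groups therefore overlapped, and the difference of -1.48 ± 0.42 (adjusted p = 0.0230) lost its call without any of the other 4 pairs (adjusted p from 0.0686 to 0.152). A separate gene row, named as antisense to Spry4, ran alongside it, with up to 89.6 CPM in progenitors and at most 1.56 CPM in these 2i-LIF libraries. Whether the counting used strand is not stated, so reads of the Spry4 rows may be divided between them.

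The phosphatase gene Dusp6 (chr10:99263231-99267489, plus strand) stood at 0, 3.22, 1.16, 7.05 and 6.26 CPM in 2i-LIF and at 74.9, 33.2, 49.6, 7.42 and 125 CPM in FBS-LIF. It was lower in 2i-LIF (log2 difference -3.60 ± 0.61, adjusted p = 0.000569), and the groups were set apart by a margin of less than 1 CPM, because the R10 OKMS library in FBS-LIF held as little Dusp6 as the 2i-LIF libraries. Dusp4 (chr8:34807297-34819894, plus strand) ranged from 0 to 7.05 CPM in 2i-LIF and from 20.8 to 70.4 CPM in FBS-LIF, with a log2 difference of -3.80 ± 0.53 (adjusted p = 0.000105).

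Of the ETS factor genes, Etv4 was called and Etv5 was not. Etv4 stood at 46.4, 65.6, 57.0, 106 and 51.6 CPM in 2i-LIF and at 164, 175, 147, 105 and 115 CPM in FBS-LIF. It was lower in 2i-LIF in 4 of 5 pairs and level in the R10 OKMS pair, with a log2 difference of -1.14 ± 0.22 (adjusted p = 0.00214), which fell under the required size without the R9 day 14 pair (-0.97). Etv5 stood at 178, 161, 137, 169 and 185 CPM in 2i-LIF and at 153, 123, 165, 78.6 and 216 CPM in FBS-LIF, so the groups overlapped and the difference was 0.24 ± 0.20 (adjusted p = 0.471). Etv5 was higher in 2i-LIF in all 3 OKMS pairs and lower in both OKS pairs. The test of that difference between factor sets gave 0.81 ± 0.36 with an adjusted p of 0.819, and none of the 10 genes passed it (8 of 14935 genes did).

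The immediate early gene Egr1 (chr18:34859823-34864984, plus strand) stood at 1.22, 1.07, 2.33, 0 and 1.56 CPM in 2i-LIF and at 83.4, 43.1, 99.9, 20.8 and 57.6 CPM in FBS-LIF. The ranges lay far apart, and the log2 difference was -4.71 ± 0.37 (adjusted p = 2.91e-07). The 2i-LIF values of Egr1 rest on 0 to 2 reads per library, and those of Spry4, Dusp4, Dusp6 and Fos on 0 to 4, so the size of these differences depends on the pseudocount. Fos (chr12:85473890-85477273, plus strand) ranged from 1.22 to 6.26 CPM in 2i-LIF and from 11.1 to 81.2 CPM in FBS-LIF (log2 difference -3.63 ± 0.43, adjusted p = 2e-05). Ier3 (chr17:35821684-35822923, plus strand) ranged from 4.66 to 10.9 CPM in 2i-LIF and from 11.1 to 86.5 CPM in FBS-LIF (log2 difference -2.23 ± 0.42, adjusted p = 0.00134). The Ier3 ranges nearly met. The closest were 10.9 CPM in 2i-LIF (R10 OKS, 7 reads) and 11.1 CPM in FBS-LIF (R9 day 20 OKMS, 9 reads).

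**Figure D1:**
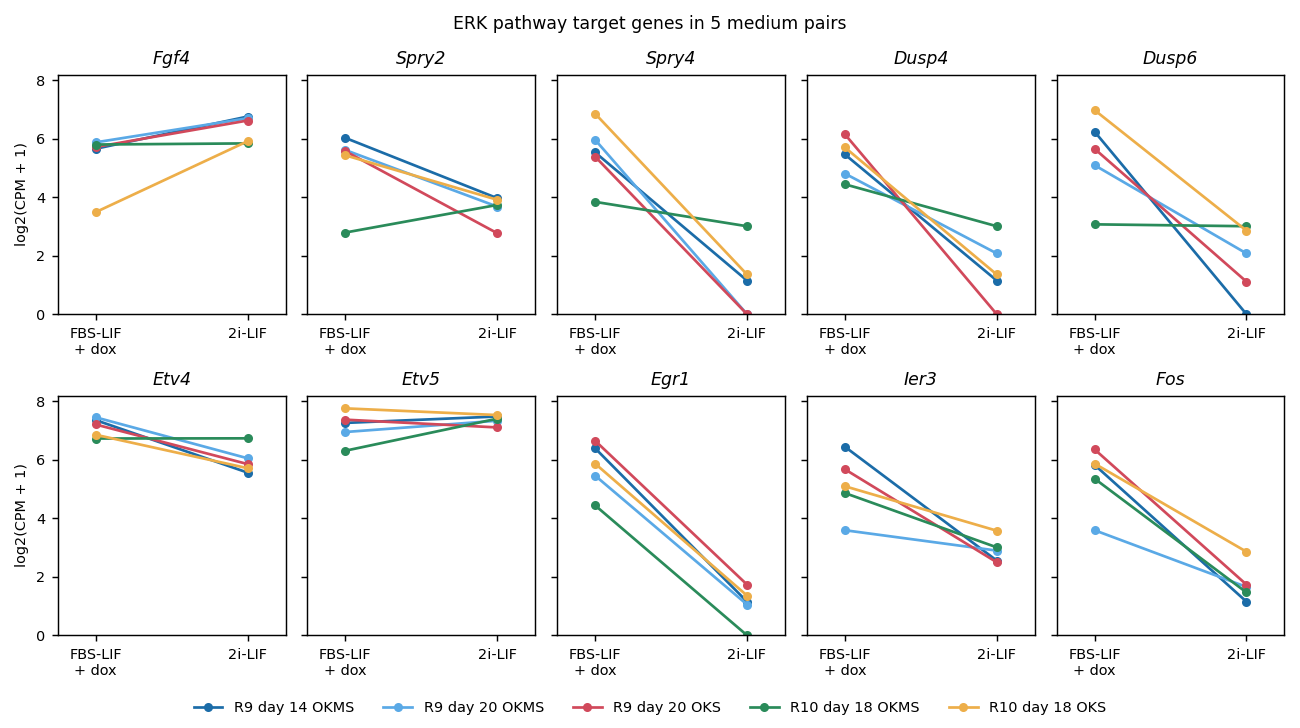
Level of each gene, as log2(CPM + 1), in the FBS-LIF with dox library and the 2i-LIF library of 5 pairs, 1 line per pair. Egr1 and Fos fell in every pair, while the R10 day 18 OKMS pair was nearly flat for Dusp6 and Etv4 and rose for Spry2 and Etv5.

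The R10 day 18 OKMS pair stood apart for several genes, not only the feedback genes. Its FBS-LIF library held 5.94 CPM of Spry2 (4 reads), 7.42 CPM of Dusp6 (5 reads) and 13.4 CPM of Spry4 (9 reads). Each was lower than in the other 4 paired FBS-LIF libraries. So were Dusp4 (20.8 CPM), Etv4 (105 CPM), Etv5 (78.6 CPM) and Egr1 (20.8 CPM), but not Fgf4, Ier3 and Fos. Egr1 and Fos (40.1 CPM) of that library remained above the 2i-LIF range. That library had the highest summed level of 9 stem cell markers among the R10 FBS-LIF libraries (15765 CPM, against 5742 CPM in the OKS library of the same day). Dppa5a weighs most in such sums, with a mean of 4706 CPM in OKMS and 1286 CPM in OKS over the 3 paired R10 days. On those days Zfp42 (103 against 127 CPM) and Tdh (50.9 against 123 CPM) had lower means in OKMS. The other markers of the list had higher means in OKMS. The part of these markers in the result was not tested. Among the R10 pairs alone 2 of the 10 genes were called (Egr1 and Fos) and 188 genes of all tested, and among the R9 pairs alone 8 and 1166. With the R10 OKMS pair left out, 9 were called, and the range for all genes with a pair left out is given below.

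The rest of the pathway was read from lists of named genes, beside the 6.32% of all genes called lower and the 5.95% called higher. Of 14 tested feedback genes outside the 10, 8 were lower in 2i-LIF and none higher, among them Spred1, a Sprouty relative (log2 difference -2.13, 4.55 ± 2.67 against 21.9 ± 6.36 CPM, SD, n = 5 each), the phosphatase gene Dusp3 (-2.09) and Spry1 (-1.94). Their median was -1.37. Of 18 other targets, 5 were lower and none higher, led by Phlda1 (-3.17), the ETS factor gene Elk3 (-3.08) and Jun, the partner of Fos (-2.60). Of 15 ligand and receptor genes, 6 were lower, led by Fgf15 (-3.76), Igf1r (-2.17) and Fgf17 (-2.09), and 1 was higher. Of the 20 kinases, adaptors and scaffolds of the cascade itself, Mapk3, which encodes ERK1, was lower (-1.97, 25.3 ± 16.5 against 93.7 ± 50.3 CPM), and the scaffold gene Ksr1 was higher (2.01). Their median was -0.03, as it was for all genes tested. Markers moved with the medium as well: 6 of 9 stem cell markers were higher in 2i-LIF (Fgf4 is also one of that list), and 2 of 5 tested progenitor markers, 2 of 4 astrocyte markers, 2 of 3 neuron markers and 1 of 6 fibroblast markers were lower. Their part in the result was not tested.

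Stem cells were then compared with progenitors, both outside induction. Stem cells were in 2i-LIF and progenitors in EGF and FGF-2, so the cell type and the medium cannot be told apart. The labels held against markers: the summed stem cell markers ran from 16.2 to 35.4 CPM in progenitors and from 11371 to 14074 CPM in stem cells, and the progenitor markers from 5288 to 8316 CPM in progenitors and from 174 to 377 CPM in stem cells, although Sox1 was at 0 in all progenitors. Of 4 neuron markers tested in R10, Stmn2 (6.98) and Tubb3 (3.88) were higher in stem cells, and Map2 (-7.47) and Rbfox3 (-1.89) were lower. Of 5 astrocyte markers 3 were lower and 1 higher, and of 5 fibroblast markers 3 were higher and 2 lower. Their part in the result was not tested. In R10 (7 stem cell against 4 progenitor libraries) 8 of the 10 genes were called, 7 of them lower in stem cells, where 45.8% of all 15415 genes tested were called (23.5% lower and 22.4% higher). In R9 (2 against 4) 9 were called, 8 of them lower, where 36.0% of 15746 genes were (18.4% lower and 17.6% higher). The median log2 difference of the 10 was -3.69 in R10 and -4.21 in R9, against 0.01 and -0.07 for all genes tested. The share of mitochondrial reads in R9 was 0.493% to 0.884% in progenitors and 0.310% and 0.344% in stem cells. In R10 it was 1.08% and 1.12% in progenitors of the factor lines, 0.273% and 0.153% in those of wild type, 1.81% to 2.35% in 6 stem cell libraries and 0.124% in the R1 library without an n number. With the stem cells limited to that library, assumed to vary like the progenitors, 8 of the 10 genes were called and 5110 genes in all.

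Fgf4 was all but absent from progenitors, at 0 in 6 of 8 libraries and at 0.318 and 1.35 CPM in the others. It stood at 36.5 to 87.4 CPM (median 48.4) in R10 stem cells, and at 135 and 168 CPM in R9 stem cells. The log2 difference was 5.63 ± 0.23 in R10 (adjusted p = 1.3e-11) and 6.94 ± 0.46 in R9 (adjusted p = 1e-04).

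Spry4 stood at 293, 297, 237 and 193 CPM in the R10 progenitors (OKMS, OKS and the wild-type replicates 2 and 3) and at 0.387 to 9.60 CPM (median 2.69) in the 7 R10 stem cell libraries. In R9 it stood at 112, 74.2, 61.5 and 162 CPM in progenitors and was at 0 in both stem cell libraries, which makes it at least 36.2-fold lower there against a floor of 3 reads per library. The log2 difference was -5.99 ± 0.48 in R10 (adjusted p = 2.5e-08). Spry2 was lower by the same tests, with 117 to 150 CPM in R10 progenitors against 6.97 to 22.1 CPM in stem cells (log2 difference -3.33 ± 0.25, adjusted p = 1.28e-08).

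Dusp6 stood at 388, 393, 389 and 351 CPM in R10 progenitors and at 1.55 to 7.55 CPM (median 4.48) in R10 stem cells, 85.2-fold higher in progenitors (log2 difference -6.23 ± 0.28, adjusted p = 3.49e-11). Dusp4 stood at 62.4, 74.8, 10.5 and 53.4 CPM in R10 progenitors and at 0 to 1.30 CPM in stem cells (log2 difference -4.72 ± 0.43, adjusted p = 1.08e-07). The wild-type replicate 2 was the low progenitor for Dusp4, and even it lay above every stem cell library.

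The differences of Etv4 and Etv5 in R10 were smaller than those of the Sprouty and phosphatase genes. Etv4 ranged from 222 to 268 CPM in R10 progenitors and from 63.5 to 158 CPM in R10 stem cells (log2 difference -1.39 ± 0.21, adjusted p = 2.47e-05). Part of these Etv4 reads may belong to an unannotated transcript described below. Etv5 ranged from 408 to 503 CPM in R10 progenitors and from 246 to 338 CPM in R10 stem cells, without overlap, and its difference of -0.63 ± 0.11 had a small adjusted p (0.000121) but fell short of the required size. In R9 the Etv5 difference was -1.43 ± 0.25 (adjusted p = 0.00430) and was called. The test of whether R10 and R9 differed in this gave an adjusted p of 0.0585 for Etv5, and no gene of the 10 passed it (3.79% of 18341 genes did).

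Egr1 stood at 65.9, 97.0, 82.9 and 39.9 CPM in R10 progenitors. In R10 stem cells it was at 21.7 CPM in O4G n1 and 31.4 CPM in R1 n1, and between 0.328 and 3.14 CPM in the other 5, so 2 stem cell libraries came near the progenitor range without reaching it (log2 difference -4.04 ± 0.79, adjusted p = 0.000303). Ier3 showed no such spread, with 153 to 193 CPM in R10 progenitors and 2.32 to 4.93 CPM in R10 stem cells (log2 difference -5.21 ± 0.19, adjusted p = 3.13e-12). Fos was low on both sides, at 13.2, 33.9, 3.81 and 2.01 CPM in R10 progenitors and at 0.870 to 8.24 CPM in stem cells. These ranges overlapped and Fos was not called (-1.15 ± 0.58, adjusted p = 0.0889). In R9 both stem cell libraries (1.89 and 1.86 CPM) lay below the progenitors (5.35 to 60.7 CPM), but Fos was not called there either (-2.37 ± 0.90, adjusted p = 0.0768). DESeq2 on the recovered reads called Fos in both chemistries, and edgeR in R10, while against wild-type progenitors alone the R10 difference turned to 0.12 (adjusted p = 0.860). Among progenitors, the OKS libraries had the most Fos in both chemistries (33.9 CPM in R10 and 60.7 CPM in R9, against at most 13.5 CPM in the others).

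**Figure D2:**
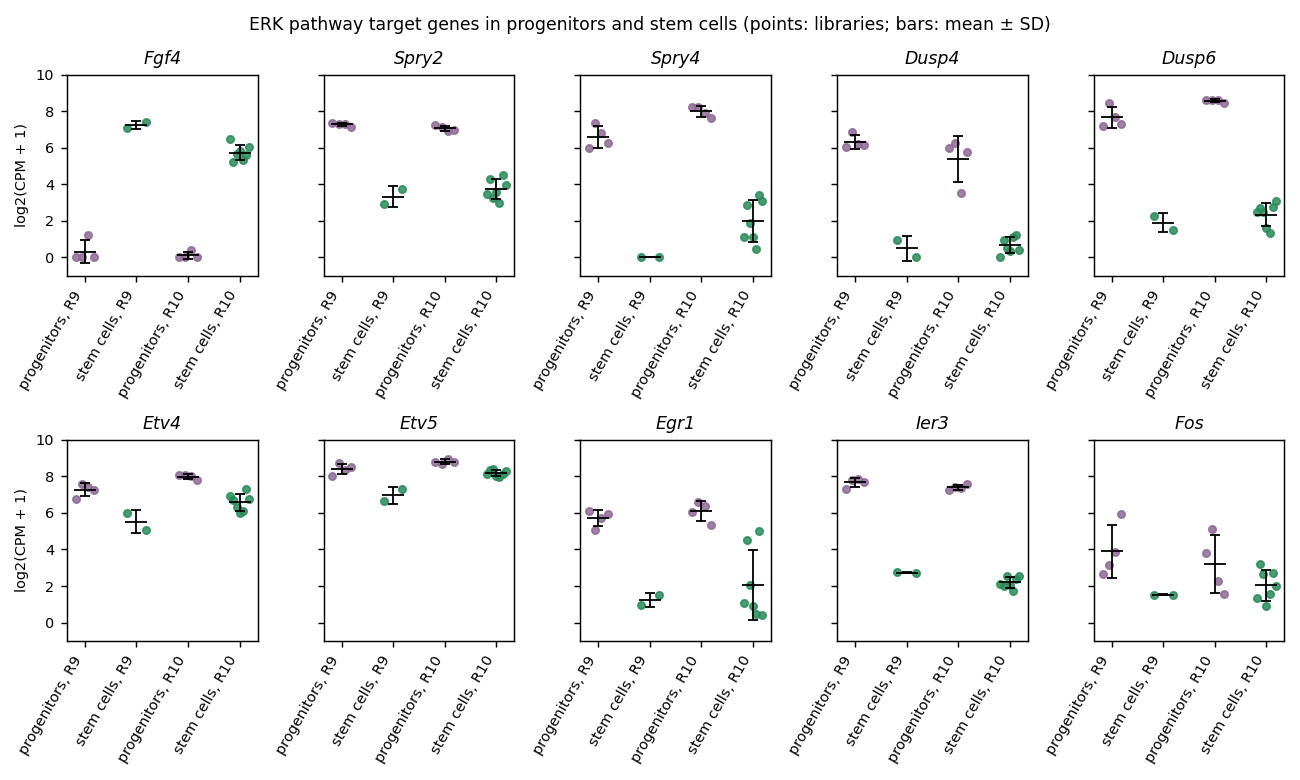
Level of each gene, as log2(CPM + 1), in progenitors and stem cells of both flow cell types. Points are libraries and bars show the mean ± SD. Fgf4 was higher in stem cells, Etv5 differed least, and Egr1 spread widely among the 7 R10 stem cell libraries.

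Other pathway genes were called in both directions, where 23.5% of all genes tested were called lower and 22.4% higher. Of 14 feedback genes tested in R10, 7 were lower in stem cells, led by Spry1 (-3.80) and Spred3 (-3.14), and the phosphatase gene Dusp9 was higher (2.89). Of 19 other targets, 10 were lower, led by Ets1 (-5.22), Phlda1 (-4.99) and Jun (-4.68), and 2 were higher. Of 11 ligand and receptor genes, 7 were lower, among them Fgf1 (-5.89), Egfr, the receptor of the EGF in progenitor medium (-4.72), and Igf1r (-3.94), and 3 were higher. Of the 20 cascade genes 5 were lower and 3 higher, led by the ERK-activated kinase gene Rps6ka1, which was higher (3.26), Rps6ka3 (-2.31) and Mapk3 (-2.29).

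The early days of induction were followed next. Wild-type progenitors moved for 2 days to FBS-LIF with dox, with no factors to induce, were compared with wild-type progenitors (R10, 2 against 2). Of 9 genes tested, 7 were called, 6 lower and Fos higher, where 26.8% of 14688 genes were called (11.9% lower and 14.9% higher). Fgf4 was at 0 in both treated libraries and was not tested.

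Etv4 was lower after 2 days, at 7.05 and 6.59 CPM against 255 and 222 CPM (log2 difference -4.94 ± 0.23, adjusted p = 0.000971). Etv5 was lower too, at 25.1 and 59.3 CPM against 503 and 436 CPM (-3.57 ± 0.41, adjusted p = 0.00406). Spry4 was at 3.91 and 6.92 CPM against 237 and 193 CPM (-5.11 ± 0.32, adjusted p = 0.00132). None of these 3 genes overlapped between the groups, a weak mark with 2 libraries a side. The share of all genes tested without such overlap was not counted.

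Dusp6 was at 10.6 and 38.9 CPM against 389 and 351 CPM (-4.11 ± 0.57, adjusted p = 0.00660), and Spry2 at 25.1 and 36.2 CPM against 117 and 123 CPM (-1.96 ± 0.26, adjusted p = 0.00590). Fos was at 37.2 and 34.3 CPM against 3.81 and 2.01 CPM, 12.3-fold higher (3.27 ± 0.39, adjusted p = 0.00456). Egr1, at 53.6 and 60.9 CPM against 82.9 and 39.9 CPM, overlapped and was not called (-0.01 ± 0.38, adjusted p = 0.988). Ier3 was lower by 1.04 ± 0.21 (log2 difference -1.04, adjusted p = 0.0180). Dusp4 was not called (-1.90 ± 0.75, adjusted p = 0.114), but it was with the replicate number as a block.

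With 2 libraries a side, leaving out the treated replicate 2 or either progenitor library left no gene of the 10 called and none of all genes, and leaving out the treated replicate 3 left 5 and 1141. The condition had 1 library in R9, which has no spread of its own. It lay on the same side of the 2 R9 wild-type progenitors for each of the 7 genes. How many of all genes did so was not counted. Astrocyte markers moved with this comparison: their sum was 2375 and 4385 CPM in the treated R10 libraries against 214 to 371 CPM in all R10 progenitors, and the fibroblast markers summed to 1048 and 1151 CPM against 48.3 to 150 CPM. Of 7 progenitor markers Olig2 (-4.62) and Nes (-1.47) were lower and Vim (1.14) was higher, and of 3 neuron markers Tubb3 (1.54) was higher. Their part in the result was not tested. The lists are read against the 26.8% of all genes called. Of 19 other targets tested, 4 were higher and 4 lower, led by Ccnd1, which encodes cyclin D1 (-5.24, 10.9 ± 3.74 against 439 ± 85.7 CPM), Junb (3.75) and Fosl2 (3.09). Of 12 ligand and receptor genes 4 were higher and 1 lower, led by Fgf1 (-3.04), Hbegf, an EGF receptor ligand (2.90), and Fgfr2 (2.57). Of 13 other feedback genes 2 were higher and 3 lower, led by Spry1 (-4.37), Dusp5 (1.93) and Errfi1 (1.86), and of the 20 cascade genes Ksr1 (1.55), Frs2 (1.29) and Gab1 (1.10) were higher.

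In the factor lines, none of the 9 tested genes was called by the same rule (limma, R10 OKMS and OKS at day 2 against wild type at day 2, 2 against 2), where 0.740% of 15402 genes were called. At an unadjusted p under 0.05 there were 5, all higher in the factor lines, and 2344 of all genes tested. Spry4 was at 23.7 and 52.2 CPM in the factor lines against 3.91 and 6.92 CPM (2.54 ± 0.58, adjusted p = 0.0909), and Fos at 111 and 285 CPM against 37.2 and 34.3 CPM (2.29 ± 0.48, adjusted p = 0.0627). Neither gene overlapped between the groups, a weak mark with 2 libraries a side, and the share of all genes without overlap was not counted. Both were called by edgeR and by DESeq2 on the recovered reads, which also called more of all genes than limma did. In R9, with 1 wild-type library, Spry4 was at 15.8 (OKMS) and 25.4 (OKS) against 15.6 CPM. Fos was at 250 and 451 against 46.7 CPM there. The factor lines lay above wild type before induction as well: in R10 progenitors Fos was at 13.2 and 33.9 CPM against 3.81 and 2.01 CPM, and Spry4 at 293 and 297 CPM against 237 and 193 CPM. The line and the factors therefore cannot be told apart here. The wild-type libraries are those of the comparison before. The share of mitochondrial reads differed between the lines at day 2, at 1.51% and 1.64% against 0.319% and 0.165% in wild type, as it did at day 0 (1.08% and 1.12% against 0.273% and 0.153%). Among markers, the stem cell genes Pou5f1 and Klf4, whose rows may hold reads of the factors, the progenitor marker Hes5 (5.61) and the neuron marker Stmn2 (4.71) were higher in the factor lines. The part of these in the results was not tested.

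Within the factor lines, day 2 was compared with day 0 over both sets. Day 0 was in progenitor medium and day 2 in FBS-LIF with dox, so the medium and the factors cannot be told apart. The genes called here had the same sign in the wild-type comparison of R10 above. The share of all genes with the same sign in both was not counted, and the part of the medium was not tested. In R9, 3 of the 10 genes were called, Etv4 and Etv5 lower and Fos higher, where 3.01% of 16984 genes were (0.842% lower and 2.17% higher). In R10, Spry4, Etv4 and Etv5 were called lower, where 0.797% of 16684 genes were called (0.210% lower). Etv4 was at 9.04 and 10.7 CPM at day 2 (OKMS, OKS) against 170 and 153 CPM at day 0 in R9 (-3.90 ± 0.32, adjusted p = 0.00278), and at 20.6 and 17.5 CPM against 264 and 268 CPM in R10 (-3.74 ± 0.42, adjusted p = 0.0302). Etv5 was lower in R9 by 2.43 ± 0.31 (log2 difference -2.43, adjusted p = 0.0114) and in R10 by 2.44 ± 0.34 (log2 difference -2.44, adjusted p = 0.0434). Spry4 was called in R10 (-3.03 ± 0.36, adjusted p = 0.0313) and not in R9 (-2.13 ± 0.53, adjusted p = 0.0877).

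Fos was higher at day 2 in R9, at 250 and 451 CPM against 13.5 and 60.7 CPM (3.49 ± 0.40, adjusted p = 0.00740). In R10 it was at 111 and 285 CPM against 13.2 and 33.9 CPM, with a similar difference that was not called (3.01 ± 0.90, adjusted p = 0.169). The R9 calls were lost without the OKMS library of day 2, and the R10 calls without either day 2 library, which leaves 1 library at that day. Leaving out an R10 library of day 6 raised the R10 count to 8 (OKMS) or 6 (OKS), and that of all genes to 2161 or 1068. Markers of other cell types moved with these days. In R9 the fibroblast markers summed to 1020 and 1158 CPM at day 2 against 79.4 and 110 CPM at day 0 (3 of 7 called higher), and the astrocyte markers to 837 and 1630 CPM against 263 and 266 CPM (2 of 6 called higher). In R10 the fibroblast markers summed to 682 and 1073 CPM against 87.9 and 150 CPM (2 of 7 called higher), and the astrocyte markers to 609 and 1654 CPM against 371 and 358 CPM (none called). The neuron marker Tubb3 was higher in R9 (4.25) and R10 (3.71), Stmn2 was higher in R9 (4.48), and the progenitor marker Olig2 was lower in R9 (-4.34). Their part in the result was not tested. Of the other targets Junb was higher in R9 (5.82) and Ccnd1 lower in R9 (-2.69) and R10 (-3.41), of the feedback genes Dusp1 (5.17) and Errfi1 (2.99) were higher in R9, and Fgfr1 was the only ligand or receptor gene called in R9, where it was higher (177 ± 23.6 against 62.2 ± 9.20 CPM, SD, n = 2 each). No cascade gene was called in either chemistry.

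From day 2 to day 6 no gene of the 10 was called, and no gene of all tested was (0% in R9 and in R10). At an unadjusted p under 0.05 there were 1140 genes in R9, 3 of them among the 10, and 692 in R10, 4 of them among the 10. Etv4 went from 9.04 and 10.7 CPM to 53.2 and 48.2 CPM in R9 and from 20.6 and 17.5 CPM to 155 and 58.9 CPM in R10, with log2 differences of 2.25 ± 0.32 and 2.28 ± 0.42. These values did not overlap between the days, a weak mark with so few libraries a day. For all genes such overlap was not counted. With edgeR in R9 and DESeq2 in R10, Etv4 was called. Etv5 differed by 1.13 ± 0.31 in R9 and 1.01 ± 0.34 in R10. Fgf4 was at 0 in both R9 libraries of day 2 and at 21.8 and 5.36 CPM at day 6, and by day 10 at 46.4 CPM in OKMS and 24.5 CPM in OKS.

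**Figure D3:**
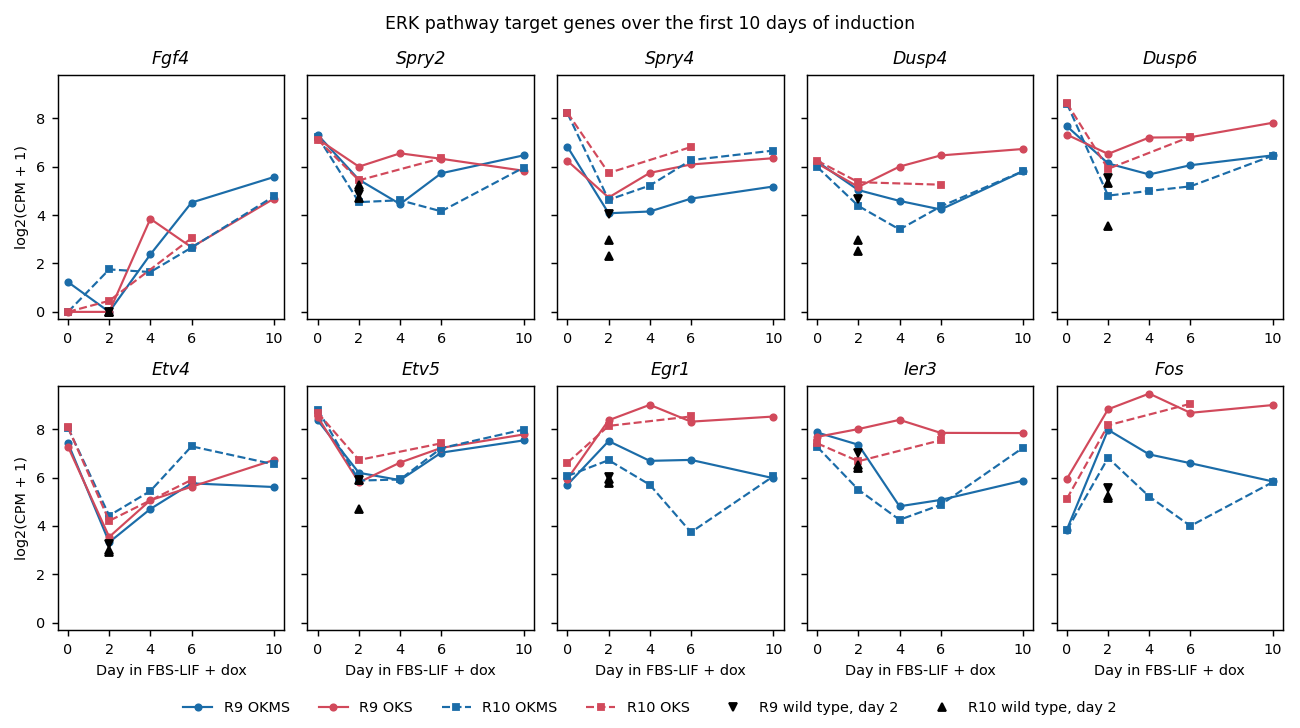
Level of each gene, as log2(CPM + 1), against the day in FBS-LIF with dox, 1 line per factor set and flow cell type, with wild-type libraries of day 2 as triangles. Etv4 and Etv5 were lower at day 2 than at day 0 in all 4 series, Fos was highest in OKS, and R10 OKS was not sampled at days 4 and 10.

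The same days showed the factor sets apart, and that comparison was added after the values were seen. OKMS was set against OKS in FBS-LIF with dox with the day as a block, over 6 days in R9 and 3 in R10. The days of a line may share a culture, so they are not known to be independent. In R9, 4 of the 10 genes were called, all lower in OKMS, where 11.0% of 14277 genes were called lower. In R10 none was, and none of 15135 genes was (0%), although 8 of the 10 genes and 2389 genes in all had an unadjusted p under 0.05, and DESeq2 called 349 genes, Dusp6 and Egr1 among them.

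Fos was at 250, 123, 95.5, 56.3, 55.9 and 11.1 CPM in R9 OKMS and at 451, 707, 407, 509, 180 and 81.2 CPM in R9 OKS at days 2, 4, 6, 10, 14 and 20. It was lower in OKMS on all 6 days (-2.17 ± 0.25, adjusted p = 0.000589), although the ranges overlapped across days. Egr1 was at 181, 102, 105, 61.9, 83.4 and 43.1 CPM in OKMS and at 329, 512, 316, 366, 160 and 99.9 CPM in OKS, and was again lower in OKMS on all 6 days (-1.57 ± 0.23, adjusted p = 0.000959). Ier3 was lower in OKMS on 5 of 6 days (-1.84 ± 0.37, adjusted p = 0.00368) and Dusp4 on all 6 (-1.22 ± 0.25, adjusted p = 0.00376). Etv4 showed no direction, being lower in OKMS on 3 of 6 days (-0.19 ± 0.21, adjusted p = 0.546).

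In R10 the day 6 libraries were the farthest apart for Fos, Egr1, Ier3 and Etv4, and those of day 18 for the other genes. Fos stood at day 6 at 15.0 CPM in OKMS and 527 CPM in OKS, and Egr1 at 12.4 and 367 CPM. All 3 R10 days had Fos, Egr1, Ier3, Dusp4, Dusp6, Spry2, Spry4 and Etv5 lower in OKMS. The median of all genes tested was itself below 0 there (-0.19), and the share of them lower on all 3 days was not counted. Of 20 other targets tested in R9, 6 were lower in OKMS, led by Junb (-1.90), Egr2 (-1.37) and Etv1 (-1.31). Of 13 ligand and receptor genes 4 were lower. Of 14 feedback genes 1 was lower and 1 higher, and of 20 cascade genes 1 was lower and 1 higher. Of all 14277 genes tested, 1577 were called lower (11.0%) and 990 higher. Markers moved with the factor set in R9: 5 of 6 astrocyte, 4 of 7 progenitor and 4 of 6 fibroblast markers were lower in OKMS, and 3 of 9 stem cell markers were higher. Of 3 neuron markers, Stmn2 (2.47) and Tubb3 (1.14) were higher and Map2 (-2.01) was lower. The share of mitochondrial reads was higher in OKS on 5 of 6 days in R9, where it ran from 0.337% to 0.708% in OKMS and from 0.387% to 0.990% in OKS, and on all 3 days in R10 (0.730% against 1.30% at day 6). Over days 2 to 6 the astrocyte markers summed to 229 to 837 CPM in R9 OKMS and 1630 to 1764 CPM in R9 OKS. In R10 they summed to 66.2 to 609 CPM in OKMS and 1114 to 1654 CPM in OKS. The stem cell markers summed to 5005 to 9626 CPM in R9 OKMS and 134 to 8334 CPM in R9 OKS over days 10 to 20, and the fibroblast markers to 153 to 686 CPM against 608 to 2754 CPM. The OKMS and OKS cells are separate lines, so the line and the factor set cannot be told apart, and the part of the markers and of the mitochondrial share in the result was not tested.

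**Figure D4:**
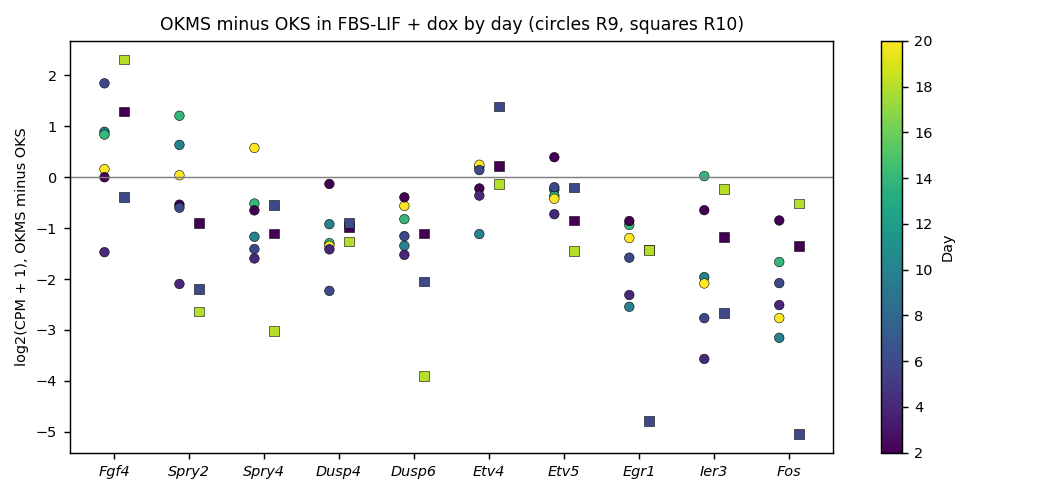
Difference in log2(CPM + 1) between OKMS and OKS libraries of the same day in FBS-LIF with dox, coloured by day, with circles for R9 and squares for R10. All points of Fos, Egr1, Dusp4 and Dusp6 lie below 0, and those of Etv4 lie on both sides.

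Across all libraries the 10 genes did not vary as 1 block. As a description, the smaller of Pearson's r over the 22 R9 and the 23 R10 libraries was 0.94 for Spry4 with Dusp6, 0.87 for Spry2 with Dusp6, 0.81 for Egr1 with Fos and 0.81 for Etv4 with Etv5. Across these sets it ranged widely, from 0.89 for Dusp6 with Ier3, 0.86 for Dusp4 with Ier3 and 0.74 for Dusp6 with Egr1 to 0.43 for Dusp6 with Fos and 0.21 for Dusp6 with Etv4, and Etv5 and Fos ran opposite to each other (-0.31 in R9 and -0.51 in R10). Fgf4 ran opposite to the Sprouty, phosphatase and immediate early genes in both chemistries, from -0.39 and -0.44 with Fos to -0.77 and -0.82 with Ier3 (R9 and R10). Libraries share conditions and depth, so these points are not independent. Of 11823 genes compared, those most like each gene by the same measure were Cobl (0.95) and Tfcp2l1 (0.94) for Fgf4, Spry1 (0.89) and Dusp6 (0.87) for Spry2, and Dusp6 (0.94) and Myc (0.90) for Spry4. The Myc row may hold reads of the OKMS factors. For Dusp4 they were P3h4 (0.93) and Fkbp10 (0.90), for Dusp6 Spry4 (0.94) and Trib2 (0.93), for Etv4 Etv5 (0.81) and Slc29a1 (0.81), and for Etv5 Lasp1 (0.82) and Etv4 (0.81). For Egr1 they were Fstl1 (0.89) and Igf1r (0.89), for Ier3 Jun (0.95) and Tmed3 (0.95), and for Fos Zfp36 (0.93) and Ghr (0.91).

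Full-length reads also gave the transcripts of these genes, as TPM. Etv5 (chr16:22381309-22439719, minus strand) had 56 transcripts in the deposited table, of which 48 ended within 50 bases of its distal 3′ end at 22381309. These carried 79.8 ± 6.5% of Etv5 TPM in R10 progenitors (SD, n = 4, 70.3% to 84.5%) and 45.0 ± 4.8% in R10 stem cells (n = 7, 37.3% to 51.3%). In R9 the share was 53.9% to 77.4% in 4 progenitor libraries and 38.3% and 26.8% in the 2 stem cell libraries. The ranges did not overlap in either chemistry, so stem cells held relatively more Etv5 transcripts that stop short of that end.

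The leading long form had 3901 bases and 13 exons, matched an annotated splice chain, and made up 61.6 ± 5.4% of Etv5 TPM in R10 progenitors and 20.5 ± 5.4% in R10 stem cells. A form with 13 exons and 2483 bases, ending at 22382700, made up 3.67 ± 2.56% and 22.4 ± 8.70%. In R9 that shorter form was at 12.7 ± 5.82% and 10.6 ± 9.22%, with no such shift. Between paired media the distal share overlapped in R10 and in R9, at 48.5% to 79.5% in 2i-LIF and 17.7% to 61.4% in FBS-LIF. The split by 3′ end was chosen after the values were seen and is given without a test.

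**Figure D5:**
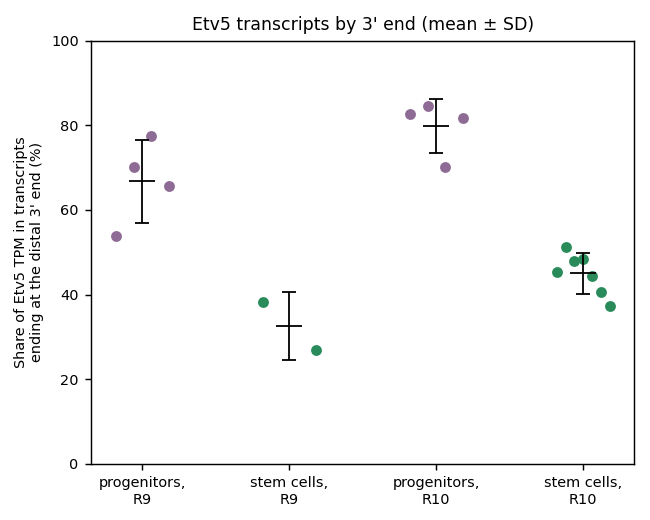
Share of Etv5 TPM in transcripts that end within 50 bases of the distal 3′ end, in progenitors and stem cells of both flow cell types. Points are libraries and bars show the mean ± SD. Progenitors lie above stem cells in R9 and in R10.

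The transcript values of the other genes were less settled. For Etv4 (chr11:101769742-101785371, minus strand), a 2-exon transcript of 384 bases that is not annotated and lies mostly beyond the 3′ end of the gene made up 77.0 ± 3.2% of its TPM in R10 progenitors and 80.7 ± 4.6% in R10 stem cells, and 0% in the paired 2i-LIF libraries, where Etv4 summed to only 11.7 and 12.3 TPM on average (R9 and R10). The annotated 13-exon form of 2360 bases held 1.53% and 0.575% in the first 2 groups. Reads of the 384-base transcript may be part of the Etv4 CPM in every comparison above, and their share of reads was not counted. For Fgf4 in stem cells, 3-exon forms of 872 and 3039 bases, which share a start, made up 43.1 ± 6.3% and 15.9 ± 3.4% in R10 and 40.2 ± 2.3% and 47.8 ± 1.1% in R9. For Dusp6 in progenitors the annotated 3-exon form of 2793 bases made up 88.0 ± 1.3% in R10 and 80.4 ± 8.0% in R9. These TPM behaved as values divided by transcript length, in which short forms weigh more than in reads, and libraries of total RNA and of poly(A) RNA can recover ends differently.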

How the data were processed

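The main measure was gene CPM, in 45 libraries, from a table the authors deposited under a name that includes IsoQuant. Per the submitters' processing notes, minimap2 2.24-r1122 and mm10 were used; other steps are not given in the sources used here. All CPM values (100%) were whole reads to within 0.02 reads, so reads were recovered. Transcript TPM, as deposited by the authors, gave shares only. Another 13 columns of the gene table matched no sample and stayed unused.

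Tests ran on log2(CPM + 1), where differences of low genes come out smaller, in limma 3.58.1 (trend, R 4.3.3), two-sided, on genes reaching 1 CPM in a number of libraries no smaller than the smaller group. Groups came from the labels. The alternatives changed the pseudocount (0.25), the filter (none, 5 CPM), the scaling (median, quantile) or the test (edgeR 4.0.16 quasi-likelihood, DESeq2 1.42.0, both on recovered reads), or left out libraries. The fit was tested on simulated data. Named genes are the 10, at most 3 called genes with the largest difference per list and comparison, and the 2 most alike genes each, among genes of at least 5 CPM in at least 4 libraries of each chemistry. Genes and lists were chosen with earlier results of these data known.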

Additional observations from a re-analysis of the deposited data

Results flagged for a closer look

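Each gene was checked for a library far from the rest in the groups of 4 to 10 libraries, which gave 50 checks of a gene in a group, and 7 of these 50 found such a library. Chance gives about 1 in 20, a rate that does not apply to the 2 checks of Fgf4 in progenitors, where the other 3 libraries were at 0 and 1 read sets the library apart. In the paired FBS-LIF libraries, Fgf4 was low in R10 day 18 OKS (10.2 CPM, others 49.6 to 57.9 CPM) and Spry2 was low in R10 day 18 OKMS (5.94 CPM, others 42.3 to 64.4 CPM). In the paired 2i-LIF libraries, Spry2 was low in R9 day 20 OKS (5.82 CPM, others 11.8 to 14.7 CPM). Among progenitors, Dusp6 was low in R10 wild-type replicate 3 (351 CPM, others 388 to 393 CPM) and Spry2 was low in R9 OKS (140 CPM, others 156 to 159 CPM). Fgf4 was above 0 only in wild-type replicate 2 of R10 (0.318 CPM) and OKMS of R9 (1.35 CPM), both under the limit that 3 reads set.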

How the results depend on the processing

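Of the single-gene values under other settings, 1370 kept their direction and their side of the threshold (called or not), 65 lost a call, 59 gained one and 28, none of them called, changed sign. For the factors at day 2 (all genes, main count 114), 74 were called with a pseudocount of 0.25, 181 with a filter of 5 CPM, 399 with median centring, 29 with quantile normalization, 334 with edgeR, 464 with DESeq2 and 0 in R9 libraries; of the 10 genes, 1 with the filter of 5 CPM and 2 each with median centring, edgeR and DESeq2. For day 2 against day 0 in R9, the filter of 5 CPM called 5 of the 10 and 804 genes, median centring 6 and 1086, edgeR 7 and 1750, DESeq2 5 of the 10, and quantile normalization 329 genes. In R10 no filter left 0 and 0, median centring called 5 and 402, DESeq2 6 and 638, and edgeR 338 genes. For day 6 against day 2, R9 gave 2 genes with median centring, 2 of the 10 and 229 genes with edgeR and 11 genes with DESeq2, and R10 1 of the 10 and 14 genes with DESeq2. For OKMS against OKS in R10, DESeq2 called 2 of the 10 and 349 genes. The R9 medium pairs alone gave 1166 genes, the R10 pairs alone 2 of the 10 and 188 genes, and the wild-type comparison in R9, whose 1 treated library is assumed to vary like the progenitors, 1 of the 10 and 1562 genes. The cause was not tested.

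Leaving out 1 library or pair gave these ranges for the 10 genes and for all genes: medium 6 to 9 and 1210 to 1908, stem cells 8 to 9 and 6943 to 7267 in R10 and 8 to 10 and 4038 to 5880 in R9, wild type at day 2 0 to 5 and 0 to 1141, factors 0 to 0 and 0 to 115. For day 2 they were 0 to 4 and 8 to 1267 in R9 and 0 to 8 and 0 to 2161 in R10, for day 6 0 to 0 and 0 to 1 in R9 and 0 to 3 and 0 to 178 in R10, and for OKMS against OKS 4 to 6 and 1686 to 3236 in R9 and 0 to 0 and 0 to 510 in R10. With the R10 stem cells limited to the R1 library without an n number, 5110 genes were called.

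Values that changed sign were, for the factors at day 2, Spry2 at -0.17 (median centring), -0.12 (quantile), -0.055 (edgeR) and -0.073 (DESeq2), from -0.43 to 0.47 with 1 library left out, and Ier3 at 0.67 in R9 and from -0.95 to 0.22. For wild type at day 2 Egr1 was at 0.42 in R9 and from -0.53 to 0.51 with 1 library left out, and Fos in R10 stem cells against wild-type progenitors was at 0.12. The other ranges with 1 library or pair left out were, for day 2 against day 0, -1.35 to 1.16 for Ier3 in R9 and -0.19 to 2.36 for Egr1 in R10. For day 6 against day 2 in R9 they were -0.62 to 1.12 for Dusp4 and -0.0080 to 0.63 for Dusp6. In R10 they were -0.26 to 0.14 for Dusp4 (0.043 with median centring, 0.022 with quantile normalization), -3.19 to 0.61 for Egr1, -2.82 to 0.90 for Fos, -0.64 to 1.17 for Spry2 and -0.89 to 1.12 for Ier3. For OKMS against OKS in R9 they were -0.27 to 0.0011 for Etv4 and -0.51 to 0.15 for Spry2.

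With the replicate number of the wild-type libraries as a replicate block, 8 of the 10 genes and 5605 genes were called at day 2. Same-numbered libraries deviated together (r = 0.474 over 14688 genes, 2 pairs), but the labels do not say that a number marks a shared culture. Shallow R10 libraries of day 18 limit the low values in 2i-LIF.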
